A study of Mus musculus with 6 samples.

Results

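The genes described are 42 genes of DNA damage signalling and repair, taken by name from a count table of 43629 genes: damage kinases and their mediators, the Fanconi pathway, homologous recombination, end joining, mismatch repair and base excision repair. All 42 symbols were found through the GENCODE M21 annotation, each with 1 gene ID, and all 42 passed the filter on low counts. RNA was sequenced from Kit-positive (c-kit+) marrow cells of C57BL/6 mice, sorted after freezing and thawing, once leukaemia had reached its end point. Every mouse carried the Cbfb-MYH11 knockin, the mouse form of the fusion gene made by inversion 16 in human acute myeloid leukaemia. Of the 6 libraries 3 were Gata2+/+ (replicates 3, 5 and 6) and 3 Gata2+/f (replicates 7, 9 and 11), in which 1 allele of the transcription factor gene Gata2 is the one written f. The labels do not say what the f allele lacks, whether or in which cells it was recombined, or whether each library is a separate mouse, so p-values measure the spread between these libraries.

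Cells meet DNA damage with sensor kinases that halt the cycle and with repair routes that differ by lesion. Atm answers to double-strand breaks and Atr to single-stranded DNA at stalled replication forks. The Fanconi proteins unhook crosslinked strands, homologous recombination copies from the sister chromatid, end joining religates broken ends, and mismatch and base excision repair correct single bases. Many genes of the fork-linked routes are transcribed mostly in S phase under E2F factors, so their RNA is also known as a mark of cycling cells. In blood stem and progenitor cells, loss of Fanconi genes causes marrow failure and a raised risk of leukaemia.

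Total expected counts were 53789568 to 67854631 per library, and the lowest count of any member in any library was 65 (Rad51c in Gata2+/+ replicate 3). Gata2 had 886, 887 and 737 CPM (the expected count scaled to library size with TMM factors) in Gata2+/+ replicates 3, 5 and 6, against 498, 273 and 264 CPM in Gata2+/f replicates 7, 9 and 11. The log2 fold change, Gata2+/f over Gata2+/+, was −1.28 (SE 0.32; edgeR adjusted p = 0.109, DESeq2 adjusted p = 0.00684), without overlap between the groups. Kit, the receptor used for the sort, was detected throughout, at 826 to 1466 CPM in Gata2+/+ and 175 to 328 CPM in Gata2+/f. It was lower in Gata2+/f without overlap, with a log2 fold change of −2.34 (SE 0.36, edgeR adjusted p = 0.0955, DESeq2 adjusted p = 2.19e-06). Several marker lists of other cell types stood apart between the groups. Summed over 12 mast cell genes, Gata2+/+ libraries held 9244 to 11889 CPM (scaled to library totals, as for all sums here) and Gata2+/f libraries 1366 to 4545. For 12 late neutrophil genes the sums were 131 to 483 and 4263 to 8746 CPM, and for 26 replication and mitosis genes 1564 to 2293 and 3812 to 5696 CPM, with all 26 having a positive log2 fold change. Sums of monocyte genes (9) were 267 to 1035 and 1055 to 2588 CPM, of erythroid genes (9) 5935 to 10657 and 1161 to 6716, of B cell genes (7) 2.82 to 9.81 and 16.3 to 25.8, of T and NK cell genes (8) 0.525 to 1.88 and 3.12 to 5.59, and of 5 progenitor genes of the sorted cells 1703 to 2817 and 1277 to 1961. No gene of these lists was at 0 in every library. In such bulk RNA, a change in the number of cells of a type cannot be told apart from a change in RNA per cell, and the part of these lists in the results was not tested.

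The promoters of the members that lead the comparison are printed here, because promoter motifs were not used to choose the members and can be set beside their levels. They are the first 4 members by p for which RefSeq (GRCm38.p6) gave a promoter, from 250 bases before the transcription start to 50 after it, read 5′ to 3′ on the gene's strand. Capitals mark an E2F-type motif (TTGGCGC or TTCCCGC or TTGCCGC or TTCGCGC) or the NF-Y motif CCAAT on either strand. Fancb lies at chrX:164980342-164980641 (+), Chek1 at chr9:36726609-36726908 (−), Fanca at chr8:123318527-123318826 (−) and Ung at chr5:114130185-114130484 (+).
Fancb: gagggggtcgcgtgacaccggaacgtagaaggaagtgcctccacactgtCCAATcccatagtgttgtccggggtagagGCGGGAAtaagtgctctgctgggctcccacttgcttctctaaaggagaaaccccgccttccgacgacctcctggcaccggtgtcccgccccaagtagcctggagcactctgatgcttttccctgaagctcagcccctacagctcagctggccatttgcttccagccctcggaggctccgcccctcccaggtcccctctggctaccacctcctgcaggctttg
Chek1: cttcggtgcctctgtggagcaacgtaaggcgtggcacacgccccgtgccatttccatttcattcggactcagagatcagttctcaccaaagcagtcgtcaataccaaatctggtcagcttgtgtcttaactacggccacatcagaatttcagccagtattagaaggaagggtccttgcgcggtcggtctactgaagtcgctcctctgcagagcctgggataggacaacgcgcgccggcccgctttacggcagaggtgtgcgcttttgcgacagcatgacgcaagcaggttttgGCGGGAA
Fanca: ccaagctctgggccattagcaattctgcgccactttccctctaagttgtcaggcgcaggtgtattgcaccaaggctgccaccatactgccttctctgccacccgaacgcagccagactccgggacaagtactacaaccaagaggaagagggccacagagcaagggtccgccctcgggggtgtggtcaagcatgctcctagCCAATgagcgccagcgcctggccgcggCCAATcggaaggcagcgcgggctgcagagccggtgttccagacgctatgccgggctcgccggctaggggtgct
Ung: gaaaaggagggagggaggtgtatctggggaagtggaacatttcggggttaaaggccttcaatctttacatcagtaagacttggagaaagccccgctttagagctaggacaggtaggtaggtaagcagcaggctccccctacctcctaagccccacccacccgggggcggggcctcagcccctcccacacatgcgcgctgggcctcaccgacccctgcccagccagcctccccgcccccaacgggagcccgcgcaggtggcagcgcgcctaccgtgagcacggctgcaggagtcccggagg

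Fancb and Chek1 each held 1 E2F-type motif, a reverse TTCCCGC, which in Chek1 forms the last bases of the window, and Fancb also held 1 CCAAT. Fanca held 2 CCAAT and no E2F-type motif, and Ung held neither. A promoter was given for 36 of the 42 members, and 18 of these (50%) held an E2F-type motif, against 18.9% of 10735 tested genes with a promoter and 10.9% of 27025 genes in all. CCAAT stood in 22 of 36 (61.1%), against 42.7% of the tested genes. The motif TTTGAA of cell-cycle genes (CHR) stood in 2 of 36 (5.56%), against 14.7% of the tested genes and 8 of 20 replication and mitosis genes (40%). Median GC content was 60.2% for the members' promoters and 60.3% for those of tested genes. Of 11 members with a promoter that were higher in every Gata2+/f library than in every Gata2+/+ library, 5 held the E2F-type motif, and of the other 25 members 13 did. A motif match is a description of these letters and not a binding site.

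More repair genes lay higher than lower in Gata2+/f, by a modest median amount, and no single member passed the edgeR test. The smallest p-values were those of Fancd2, Ung, Fanca, Fancb, Chek1 and Tdp1. In edgeR's quasi-likelihood test 0 of 42 had an adjusted p under 0.05 (0% of all 15432 genes tested, the lowest member adjusted p being 0.127). An unadjusted p under 0.05 was reached by 22.6% of all genes, 11.1% higher and 11.5% lower in Gata2+/f. Among the members 9 (21.4%) reached it with a higher level and 0 with a lower one. DESeq2's Wald test called 6 members higher at adjusted p under 0.05 (14.3%, against 6.16% of all genes) and 0 lower (against 5.7%). Of these calls only that of Fancb held with each library left out in turn. Those of Chek1 and Fancd2 were lost without Gata2+/+ replicate 5 or 6 or Gata2+/f replicate 7, that of Fanca without Gata2+/+ replicate 3 or 5 or Gata2+/f replicate 7, and that of Ung without Gata2+/+ replicate 3 or 6 or Gata2+/f replicate 7. For 13 members (31.0%) each Gata2+/f library lay above each Gata2+/+ library, against 13.1% of all genes. For 2 (4.76%), Fance and Atm, each lay below, against 16.6%. The median log2 fold change of the members was 0.35 and that of all genes 0.02, and 30 of 42 (71.4%) had a positive value, against 51.1% of all genes. The plot of fold changes by role shows how unevenly this was spread.

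**Figure D1:**
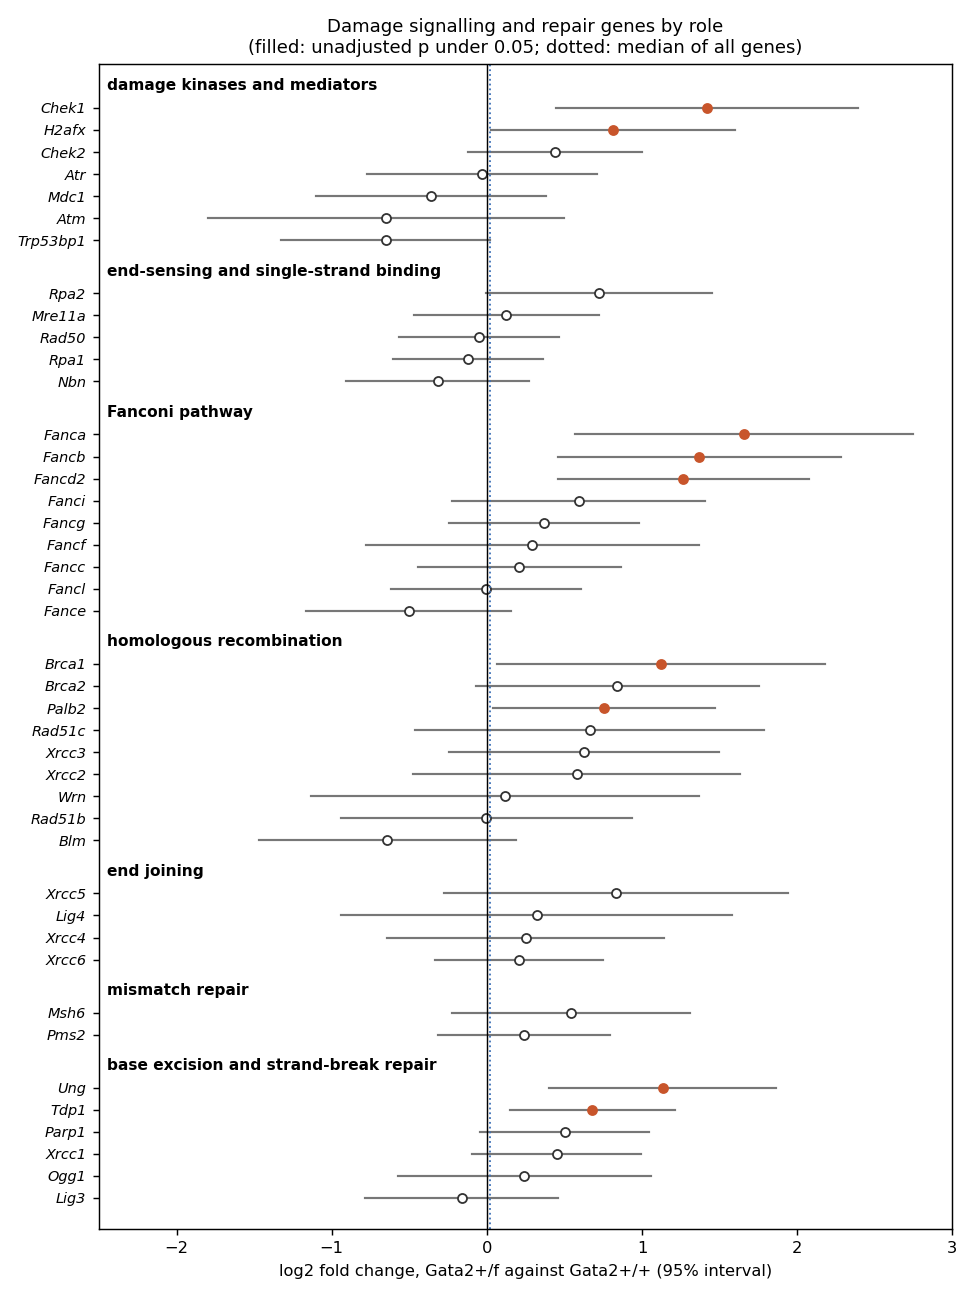
Log2 fold change of each of the 42 members, Gata2+/f against Gata2+/+, with its 95% interval (horizontal axis), grouped by role (vertical axis). Filled points mark the 9 members with an unadjusted p under 0.05, all to the right of 0, and the dotted line is the median of all tested genes (0.02).

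The shift was uneven between libraries. Gata2+/f replicate 7 held the highest level of 29 of the 42 members and the lowest of none, while Gata2+/+ replicate 5 held the lowest of 14. The median member stood 0.46 above its own mean over the 6 libraries (log2 CPM) in Gata2+/f replicate 7, but only 0.02 above in replicate 9 and 0.02 below in replicate 11. In Gata2+/+ the medians were −0.14, −0.18 and −0.07 for replicates 3, 5 and 6. Replication and mitosis genes also had their highest median in Gata2+/f replicate 7 and their lowest in Gata2+/+ replicate 5, over a wider range, with medians of 0.91, 0.52 and 0.32 in Gata2+/f replicates 7, 9 and 11 and −0.31, −1.09 and −0.35 in Gata2+/+. Their part in the members' levels was not tested. Without Gata2+/f replicate 7, the median log2 fold change was 0.24 for the members and 0.03 for all genes, and 27 of 42 members were positive. An unadjusted p under 0.05 was then found for 7 higher members and 1 lower. The share of all genes at that p was not computed for this fit.

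**Figure D2:**
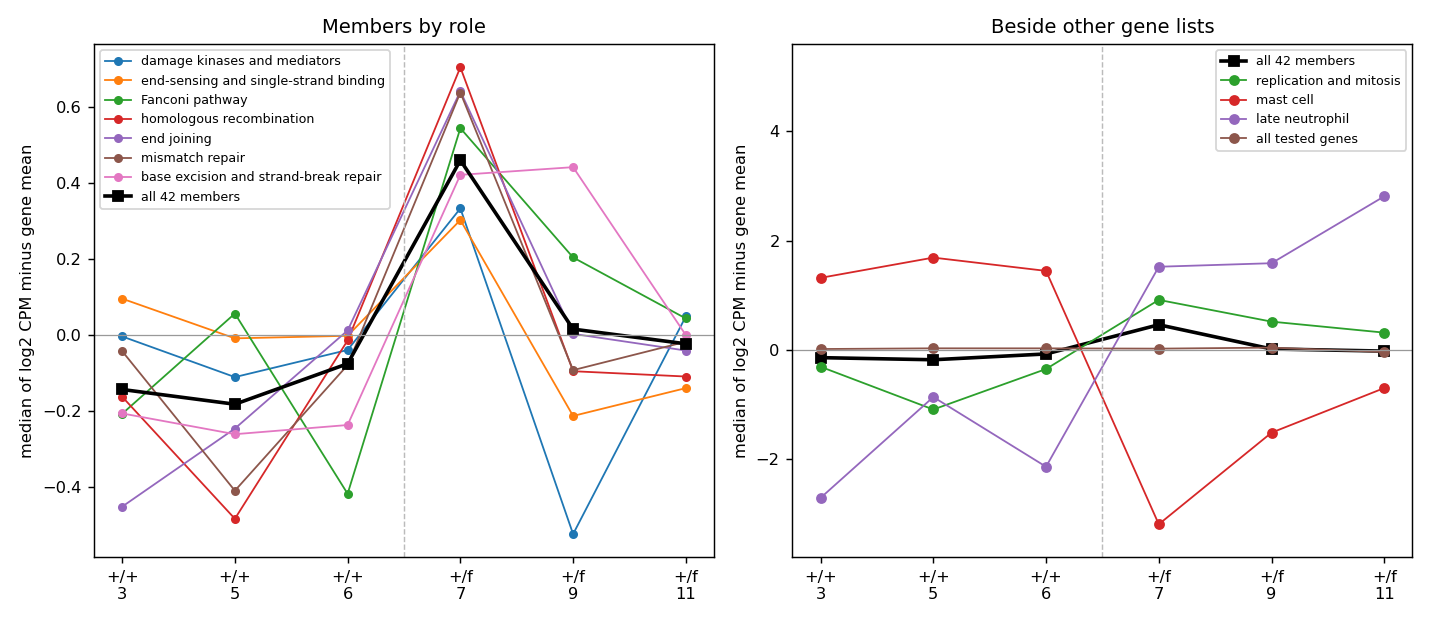
Median over each gene list of log2 CPM minus the gene's mean over the 6 libraries (vertical axes), for each library (horizontal axes, Gata2+/+ left of the dashed line). Left, members by role; right, all members beside other lists on a wider scale; lines only join the points of a list. Gata2+/f replicate 7 is the highest point for all members (0.46) and for replication and mitosis genes (0.91).

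Damage kinases and mediators had a median log2 fold change of −0.03, with 3 of 7 members above 0. The 3, Chek1, H2afx and Chek2, were higher in Gata2+/f without overlap (42.9% of the 7, against 13.1% of all genes). The 4 below 0 had no unadjusted p under 0.05, and 1 of them, Atm, was lower without overlap (14.3%, against 16.6%). Chek1, the kinase that holds cells with stalled forks out of mitosis, had 14.9, 6.74 and 10.2 CPM in Gata2+/+ replicates 3, 5 and 6 and 41.4, 19.4 and 24.4 CPM in Gata2+/f replicates 7, 9 and 11. The lowest Gata2+/f library was above the highest Gata2+/+ library. The log2 fold change was 1.42 (SE 0.42; edgeR adjusted p = 0.136, DESeq2 adjusted p = 0.0223). Chek2, the effector of Atm, also did not overlap, at 21.7 to 22.8 CPM against 26.7 to 36.6 CPM, with a log2 fold change of 0.44 (SE 0.24). H2afx encodes the histone variant that is phosphorylated around breaks. It had 30.2, 39.2 and 29.7 CPM in Gata2+/+ against 47.0, 87.5 and 39.4 CPM in Gata2+/f, where replicate 9 was highest and replicate 11 barely above the top Gata2+/+ library. Its log2 fold change of 0.81 (SE 0.34; edgeR adjusted p = 0.212) became 0.44 without Gata2+/f replicate 9.

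Atm itself had 67.1, 68.8 and 62.8 CPM in Gata2+/+ and 60.6, 13.5 and 52.4 CPM in Gata2+/f. The groups did not overlap, but replicates 7 and 11 lay close to Gata2+/+ and replicate 9 was far lower. The log2 fold change was −0.65 (SE 0.49; edgeR adjusted p = 0.448), and −0.18 without Gata2+/f replicate 9. Trp53bp1 encodes 53BP1, which shields broken ends from resection. It had 84.4, 73.7 and 53.6 CPM against 54.9, 31.2 and 48.6 CPM, with overlapping groups and a log2 fold change of −0.65 (SE 0.29; edgeR adjusted p = 0.232; −0.40 without Gata2+/f replicate 9). Its exons share 2130 bases with Tubgcp4 on the opposite strand, whose own log2 fold change was 0.16. Mdc1, the adaptor that reads phosphorylated H2afx, had −0.36 (−0.03 without Gata2+/f replicate 9), and Atr −0.03.

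These lower values moved with transcript length in Gata2+/f replicate 9. In that library the quartile of all tested genes with the longest coding transcripts (over 4424 bases) had a median of −0.41 relative to each gene's mean, and the quartile with the shortest (up to 1868 bases) 0.34. In the other 5 libraries the longest quartile had medians of 0.03 to 0.16 and the shortest −0.12 to −0.00. Of 16 members in the longest quartile, 10 were lowest in Gata2+/f replicate 9 and 13 were below their mean there, against 1 lowest among the other 26. The lowest members in that library, Atm (9787 bases), Wrn (6262), Blm (4598), Mdc1 (7335) and Trp53bp1 (9621), stood at −1.84, −1.28, −1.11, −0.93 and −0.82. The short H2afx transcript (1384 bases) stood at 1.05. Other long transcripts lay near or above their mean there: Brca2 (10724 bases) at −0.09, Brca1 (6572) at −0.04, Fancd2 (5512) at 0.41 and Fanca (4485) at 0.51. The part of transcript length, or of RNA quality, in these levels was not tested. Without Gata2+/f replicate 9, 34 of 42 members had a positive log2 fold change, and the median was 0.42, against 0.04 for all genes. An unadjusted p under 0.05 was then found for 12 members, all of them higher. The share of all genes at that p was not computed for this fit.

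**Figure D3:**
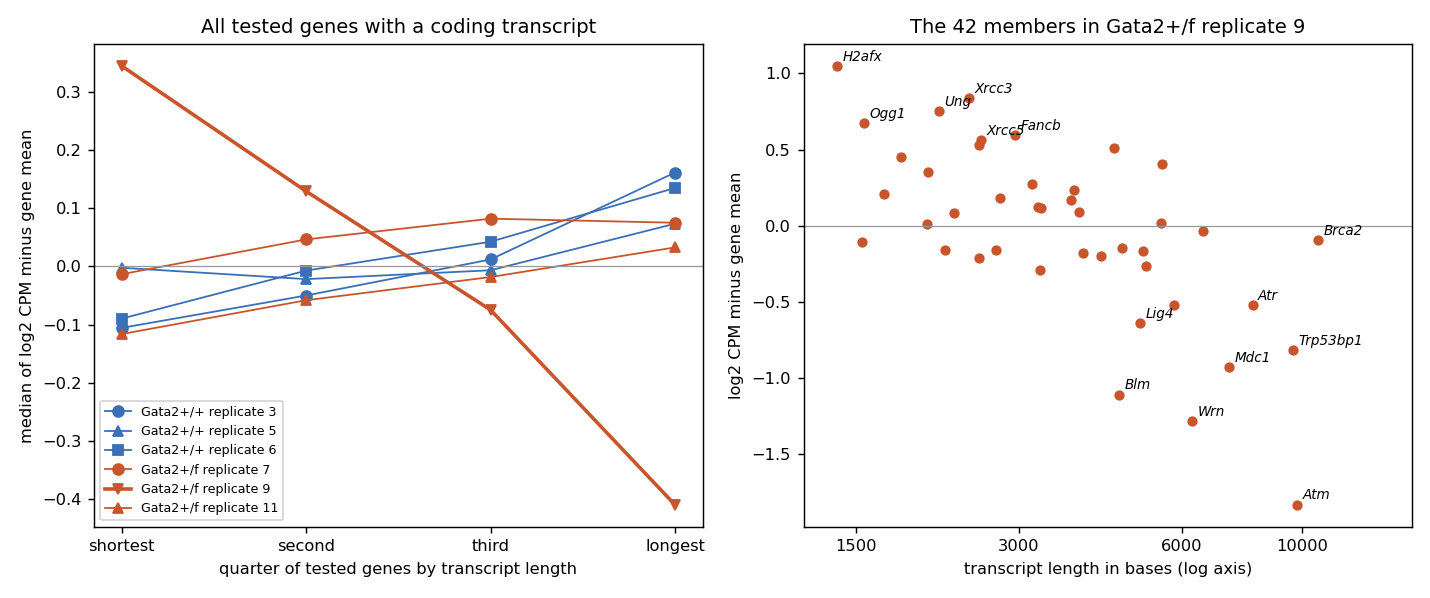
Left, median of log2 CPM minus each gene's mean over the 6 libraries (vertical axis) for quartiles of the tested genes by transcript length (horizontal axis), 1 line per library; Gata2+/f replicate 9 runs from 0.34 to −0.41. Right, the same quantity for the 42 members in Gata2+/f replicate 9 against transcript length on a log axis, from H2afx (1.05) to Atm (−1.84).

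The genes that detect ends and coat single strands were mostly level. The median log2 fold change was −0.05, with 2 of 5 members above 0 and none at an unadjusted p under 0.05. Rpa2, the middle subunit of the single-strand binding complex RPA, had 39.4, 35.3 and 58.2 CPM against 94.3, 75.5 and 49.7 CPM. Gata2+/f replicate 11 lay below Gata2+/+ replicate 6, and the log2 fold change was 0.72 (SE 0.31; edgeR adjusted p = 0.223). Its partner Rpa1, the large subunit, was at −0.12 (SE 0.21). For the end-binding complex of Mre11a, Rad50 and Nbn the values were 0.13, −0.05 and −0.32, each with a 95% interval that contains 0; that of Rad50 ran from −0.57 to 0.47.

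In the Fanconi pathway DESeq2 called the clamp subunit Fancd2 and the core subunits Fanca and Fancb higher (33.3% of 9, against 6.16% of all genes). It called none of the other 6 members. Fancd2 (GRCm38 chr6:113531682-113597017), the protein that is ubiquitinated at crosslinks, had 15.4, 9.96 and 11.6 CPM in Gata2+/+ replicates 3, 5 and 6 and 42.4, 24.5 and 21.9 CPM in Gata2+/f replicates 7, 9 and 11. This is a log2 fold change of 1.27 (SE 0.35; edgeR adjusted p = 0.127, DESeq2 adjusted p = 0.0138), and the groups did not overlap. Fanca, the core subunit most often lost in Fanconi anaemia, had 17.95, 8.94 and 18.7 CPM in Gata2+/+ against 79.3, 35.6 and 28.9 CPM. It had the largest fold change of the 42, 1.66 (SE 0.47; edgeR adjusted p = 0.131, DESeq2 adjusted p = 0.0156), or 1.13 without Gata2+/f replicate 7. Fanca lies on chromosome 8, whose genes together had a median of 0.44 in Gata2+/f replicate 7 and −0.23 to 0.10 in the other libraries. The other members there, Wrn (228 CPM) and Lig4 (7.92 CPM), were highest in replicate 7 too, but so were 29 of the 42 members over all chromosomes. The part of the chromosome was not tested. Fanca shares 920 exon bases with Zfp276 on the opposite strand, which had a log2 fold change of 0.27.

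Fancb, an X-linked core subunit, had low levels of 2.94, 2.01 and 2.90 CPM against 8.04, 6.30 and 5.95 CPM, with no overlap. Its log2 fold change was 1.37 (SE 0.39; edgeR adjusted p = 0.131, DESeq2 adjusted p = 0.00102), and DESeq2 called it with any 1 library left out. Fanci, the partner of Fancd2 in the clamp, lay at 0.59 (SE 0.35), and the ligase subunit Fancl at −0.00 (SE 0.26). Fancg (0.37), a core scaffold subunit, was without overlap at 14.02 to 21.2 CPM against 22.4 to 23.0 CPM, while Fancf (0.29) and Fancc (0.21) overlapped. Fance, the subunit that docks Fancd2, was the exception, with 67.2, 45.8 and 47.3 CPM in Gata2+/+ and 41.9, 44.4 and 26.7 CPM in Gata2+/f. All its Gata2+/f values were below all Gata2+/+ values by a small margin (log2 fold change −0.50, SE 0.28; edgeR adjusted p = 0.321).

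**Figure D4:**
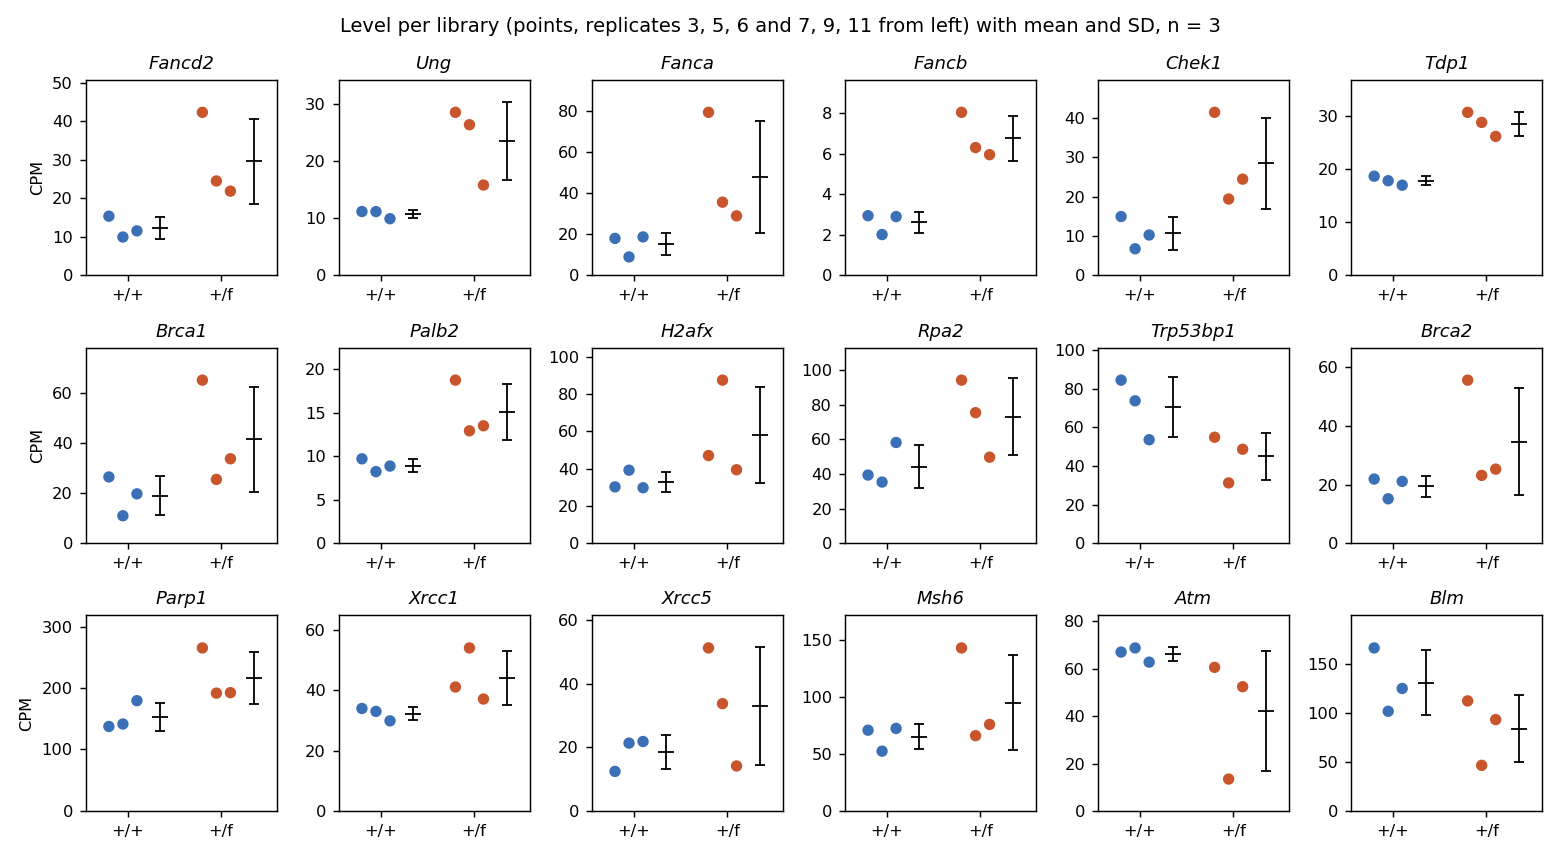
CPM (vertical axes, each from 0) of the 18 members chosen by p and by role in the 3 Gata2+/+ (blue) and 3 Gata2+/f (orange) libraries, with mean and SD (n = 3). The groups are apart in the first 6 panels, Fancd2 to Tdp1, and the low Gata2+/f point of Atm is replicate 9 (13.5 CPM).

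For homologous recombination the median log2 fold change was 0.63, with 7 of 9 members above 0 (77.8%, against 51.1% of all genes). At an unadjusted p under 0.05 stood 2, Brca1 and Palb2, both higher (22.2%, against 11.1% of all genes higher and 11.5% lower). Brca1, which directs broken ends into recombination, had 26.5, 10.9 and 19.7 CPM against 65.3, 25.5 and 33.8 CPM. Gata2+/f replicate 9 lay within the Gata2+/+ range, and the log2 fold change was 1.12 (SE 0.45; edgeR adjusted p = 0.204), or 0.69 without Gata2+/f replicate 7. Palb2, the bridge from Brca1 to Brca2, had 9.70, 8.22 and 8.86 CPM against 18.7, 12.9 and 13.5 CPM, without overlap (0.75, SE 0.31; edgeR adjusted p = 0.206). Brca2, a mediator of strand exchange, had 21.9, 15.1 and 21.1 CPM against 55.6, 23.1 and 25.3 CPM. Only replicate 7 was clearly above Gata2+/+, and the log2 fold change of 0.84 (SE 0.39; edgeR adjusted p = 0.248) was 0.37 without it.

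Rad51c, Xrcc3 and Xrcc2, which assist strand exchange, had log2 fold changes of 0.66, 0.63 and 0.58 with overlapping groups, and Rad51b had −0.00. The RecQ helicases, which unwind recombination intermediates, went apart in Gata2+/f replicate 7. Blm had 166, 102 and 125 CPM in Gata2+/+ and 112, 46.5 and 93.1 CPM in Gata2+/f. Its log2 fold change was −0.64 (SE 0.36; edgeR adjusted p = 0.317; −0.30 without replicate 9). Wrn, chosen after its values were seen, had 119, 94.6 and 120 CPM against 228, 42.3 and 92.5 CPM, the widest spread within Gata2+/f of the helicases. Its log2 fold change of 0.12 (SE 0.54) turned to −0.67 when Gata2+/f replicate 7 was left out and became 0.58 when replicate 9 was.

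All 4 end joining members had positive log2 fold changes, from 0.21 to 0.83, and none had an unadjusted p under 0.05. Xrcc5 encodes Ku80, a subunit of the Ku ring that caps broken ends. It had 12.4, 21.3 and 21.8 CPM in Gata2+/+ and 51.2, 33.7 and 14.1 CPM in Gata2+/f, so that replicate 11 lay among the Gata2+/+ libraries. The log2 fold change was 0.83 (SE 0.48; edgeR adjusted p = 0.327). The other Ku subunit, Xrcc6, was flatter, at 68.2, 49.4 and 71.2 CPM against 83.6, 72.3 and 61.7 CPM (0.21, SE 0.23). Xrcc6 lies on chromosome 15, whose genes together had medians of 0.38 and 0.40 in Gata2+/+ replicates 3 and 6 and −0.26 to −0.08 in the other libraries. Without Gata2+/+ replicate 5 the log2 fold change of Xrcc6 was 0.05, and the part of the chromosome was not tested. Lig4 and its cofactor Xrcc4, which seal the ends, had 0.32 and 0.25 at under 10 CPM.

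Of the mismatch repair members, Msh6, which recognises base mismatches, had 70.9, 52.5 and 72.5 CPM against 143, 66.1 and 75.9 CPM. Replicate 7 alone was far above Gata2+/+, and the log2 fold change of 0.54 (SE 0.33; edgeR adjusted p = 0.354) was 0.17 without it. The endonuclease subunit Pms2 had 0.24 (SE 0.24).

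Base excision and single-strand break genes had 4 of 6 members above Gata2+/+ without overlap (66.7%, against 13.1% of all genes). Their median log2 fold change was 0.48. Ung, the glycosylase that removes uracil from DNA, had 11.2, 11.2 and 9.94 CPM in Gata2+/+ and 28.6, 26.4 and 15.8 CPM in Gata2+/f. Every Gata2+/f library was above the tight Gata2+/+ range (log2 fold change 1.13, SE 0.31; edgeR adjusted p = 0.127, DESeq2 adjusted p = 0.00759). Tdp1 (GRCm38 chr12:99884517-99955219), which frees DNA ends from trapped topoisomerase I, had 18.7, 17.8 and 17.0 CPM against 30.7, 28.8 and 26.2 CPM. Relative to the mean it had the narrowest spread of the 6 members that DESeq2 called: 17.8 ± 0.850 against 28.6 ± 2.28 CPM (mean ± SD, n = 3), a log2 fold change of 0.68 (SE 0.23; edgeR adjusted p = 0.160, DESeq2 adjusted p = 0.0164). Leaving out any 1 library left the log2 fold change between 0.67 and 0.78, but DESeq2 then called Tdp1 only without Gata2+/f replicate 9.

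Parp1, the sensor of single-strand breaks, had 137, 141 and 179 CPM against 265, 192 and 192 CPM, with a small gap between the groups (0.50, SE 0.23; edgeR adjusted p = 0.249). Its scaffold partner Xrcc1 had 33.9, 33.0 and 29.8 CPM against 41.1, 54.01 and 37.1 CPM, also without overlap (0.45, SE 0.23; edgeR adjusted p = 0.288). Lig3, the ligase that Xrcc1 holds, did not follow (−0.16, SE 0.27), and nor did the glycosylase Ogg1 (0.24, SE 0.35), which was highest in Gata2+/f replicate 9. Ogg1 and Fancd2 lie on chromosome 6, whose genes together had a median of 0.25 in Gata2+/f replicate 9. In the other libraries it was −0.16 to 0.03, and the part of the chromosome was not tested.

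Abundance per transcript length set the members far apart. As mean CPM per kilobase over the 6 libraries, Rpa1 (52.4), Parp1 (47.7), H2afx (32.9) and Rpa2 (32.4) were the most abundant, and Rad51c (0.699), Lig4 (0.875), Rad51b (1.26) and Fancb (1.59) the least. The 3 most abundant of the Fanconi genes by this measure, Fance (22.5), Fancl (12.4) and Fancg (7.24), were not those with the largest fold changes. Fanca, which had the largest, was close to Fancg at 7.03.

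A further 94 repair genes were listed by role. None passed in edgeR's quasi-likelihood test. DESeq2 called 15 higher (15.96%, against 6.16% of all genes) and 1 lower (1.06%, against 5.7%). A positive log2 fold change was found for 67 of 94 (71.3%, against 51.1% of all genes). The median was 0.27, against 0.02 for all genes. At an unadjusted p under 0.05 stood 19 higher and 1 lower (20.2% and 1.06% of the 94, against 11.1% and 11.5% of all genes). Genes of recombination were the furthest along, with 8 of 15 called higher by DESeq2 (53.3%, against 6.16% of all genes) and a median of 1.17. The strand-exchange motor Rad54l had 17.95, 13.6 and 13.3 CPM against 42.5, 30.3 and 41.4 CPM (log2 fold change 1.35, SE 0.27; edgeR adjusted p = 0.0966, DESeq2 adjusted p = 0.000412). The crosslink nuclease subunit Eme1 was at 1.85 and the recombination factor Rad51ap1 at 1.73. The resection nuclease Dna2 was at 1.17, the glycosylase Neil3 at 1.39, and Rmi2, a partner of Blm, at 1.67. Eme1, Rad51ap1, Dna2, Neil3 and Rmi2 were also without overlap and called by DESeq2.

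Nucleotide excision repair, which removes bulky lesions outside S phase as well, had a median of 0.04. Of its 17 genes 10 had a positive value (58.8%, against 51.1% of all genes). Without overlap, 2 lay higher (11.8%, against 13.1% of all genes) and 4 lower (23.5%, against 16.6%). The 1 gene of this list with an unadjusted p under 0.05 was Uvssa, a factor of transcription-coupled repair (0% higher and 5.88% lower, against 11.1% and 11.5% of all genes). Uvssa had 63.7, 57.1 and 78.2 CPM in Gata2+/+ and 29.8, 32.4 and 36.1 CPM in Gata2+/f. This was the reverse direction (−1.02, SE 0.22; edgeR adjusted p = 0.0966, DESeq2 adjusted p = 0.00413), and the groups were well apart. The medians were 0.38 for 16 other damage signalling genes, 0.43 for 15 other Fanconi and crosslink genes, 0.17 for 7 other end joining genes, 0.11 for 5 other mismatch repair genes and 0.21 for 19 other base excision genes. Differences between these lists were not tested.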

How the data were processed

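The comparison was of 6 RNA-seq libraries of leukaemia cells, 3 Gata2+/f against 3 Gata2+/+. The deposited values are RSEM expected counts per Ensembl gene, not scaled, and 11.7% were not whole. Per the submitters' processing notes, CASAVA 1.8.2, STAR 2.5.4a, RSEM 1.3.0 and GRCm38 were used; the annotation release and strand setting are not given in the sources used here. Exons of 19 members overlap a gene on the opposite strand, and these levels are uncertain to that extent. Symbols came from GENCODE M21 (97.3% of IDs).

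Counts were rounded, filtered by filterByExpr (minimum count 10; 15432 genes), scaled by TMM (factors 0.821 to 1.11) and tested with edgeR 4.0.16 in R 4.3.3 (quasi-likelihood, two-sided, genotype as the only term), and p-values were adjusted after Benjamini and Hochberg over all genes, with a threshold of 0.05. Standard errors are the log2 fold change over the root of F. The fits were also run on simulated counts, drawn gene by gene without trends by transcript length or chromosome. No result above rests on them. Deviations use log2 CPM with a prior count of 2, and chromosome medians genes with a mean of 3 or more. Transcript length is that of the longest APPRIS principal transcript in GENCODE, else the longest coding one. Alternatives were DESeq2 1.42.0, limma 3.58.1 voom, other forms of the test, scalings and filters, and leaving out each library; DESeq2 with a library left out was added after the data had been seen. Members, gene lists and rules were chosen with earlier results of these data known. Named with values in every library are the 14 members with the smallest p, the first of each role without one, and the 3 lowest fold changes (18 members), beside up to 8 other repair genes, of which 1 is not reported here. Fance, Wrn and Xrcc6 were added after their values were seen.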

Additional observations from a re-analysis of the deposited data

How the results depend on the processing

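The 18 members chosen by rule kept the direction of their log2 fold change under all 7 other tools, scalings and filters and with each library left out. The rule used p and fold change from these same data, so a stable direction is partly built in. Wrn, named after its values were seen, changed direction (0.12, and −0.67 without Gata2+/f replicate 7). So did Ogg1, Lig3, Lig4, Rpa1, Mre11a, Rad50, Atr, Fancl and Rad51b, each with at least 1 library left out. For Ogg1 the value went from 0.24 to −0.06 without Gata2+/f replicate 9. With DESeq2 6 members (Chek1, Fanca, Fancb, Fancd2, Tdp1 and Ung), 16 other repair genes and 1829 of all genes passed adjusted p under 0.05, where edgeR's quasi-likelihood test gave 0 of each. Over all genes limma voom called 9, the bias-adjusted quasi-likelihood test 32 and the filter of at least 1 count 19, with 0 members in each. DESeq2 called 1 to 7 members with a library left out, and only Fancb in every such fit; without Gata2+/f replicate 7 it called Fancb alone, without Gata2+/+ replicate 5 Fancb and Ung, without Gata2+/+ replicate 6 Fanca and Fancb, and without Gata2+/+ replicate 3 Chek1, Fancb and Fancd2. Leaving out each library in edgeR's test gave 0 to 66 calls over all genes (66 without Gata2+/f replicate 11). At an unadjusted p under 0.05, 5 to 15 members were higher (5 without Gata2+/+ replicate 5, 15 without Gata2+/f replicate 11). At that p 0 to 1 were lower (1, Trp53bp1, without Gata2+/+ replicate 6 or Gata2+/f replicate 7). The share of all genes at that p was not computed for these fits. Upper quartile factors moved the median of all genes from 0.02 to 0.11. The members' median lay 0.33 above that of all genes with TMM and 0.31 with upper quartile factors. With the latter, 17 members in place of 13 lay higher without overlap and 1 in place of 2 lower. Members higher at an unadjusted p under 0.05 went from 9 to 12, and positive ones from 30 to 34. The shares over all genes were not computed with these factors. The cause of these differences was not tested. No paired analysis was possible because the groups share no replicate number.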

Other observations

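Ratios of CPM between partner proteins' genes, pairs chosen after their values were seen, are given as values for 8 pairs, of which 2 did not overlap between the groups and 6 did. The numerators of those 2, Fancd2 and Chek1, were among the members with the smallest p. No share without overlap was computed over other gene pairs, so the count has no background beside it. Fancd2 to Fanci was 0.750, 0.644 and 0.483 in Gata2+/+ replicates 3, 5 and 6 and 0.954, 1.15 and 0.897 in Gata2+/f replicates 7, 9 and 11, without overlap. Fanci shares 921 exon bases with Polg on the opposite strand, whose mean expected count was 6453 against 1587 for Fanci. Polg had a log2 fold change of −0.02. Chek1 to Chek2 was 0.668, 0.296 and 0.473 against 1.13, 0.708 and 0.915, also without overlap. The Ku pair, Xrcc5 to Xrcc6, overlapped, at 0.182, 0.431 and 0.306 against 0.613, 0.466 and 0.229. The other 5 overlapped too. Their ranges were 0.124 to 0.232 and 0.185 to 0.363 for Rpa2 to Rpa1, 0.9897 to 1.35 and 0.683 to 1.04 for Nbn to Mre11a, and 0.728 to 1.14 and 0.257 to 0.768 for Atm to Atr. They were 0.718 to 0.962 and 0.911 to 2.03 for Wrn to Blm, and 1.84 to 2.38 and 1.79 to 2.97 for Brca2 to Palb2.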
